A study of Mus musculus with 10 samples.

Results

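The genes described are 8 of the S100 family of small calcium-binding proteins, *S100a1*, *S100a4*, *S100a6*, *S100a10*, *S100a13*, *S100a14*, *S100a16* and *S100b*, out of 24453 genes in the count table. They were chosen by gene family and selected on read counts of these libraries that were already known, among them the difference of *S100a16* between the 2 cell types, so that all their differences between types are given as a description. All 8 had a row in the table, 6 had at least 1 read, and 4 passed the filter on low counts that precedes the test. RNA was sequenced from layer 5 intratelencephalic projection neurons (IT-PNs) of the primary motor cortex, to compare IT-PNs that express the transcription factor gene *Fezf2* with those that do not. Male *Fezf2-Gfp* reporter mice, of the strain (Zfp312-EGFP)CO61GsatMmnc, received CTB (cholera toxin subunit b, here with a fluorescent Alexa dye), a tracer that travels back along axons, in the left motor cortex at postnatal day 23 to 25, and layer 5 of the right motor cortex was dissected at postnatal day 28 to 32. *Fezf2+ve* IT-PNs were sorted as cells with both GFP and CTB, and *Fezf2−ve* IT-PNs as cells with CTB only. Each of 5 animals gave 1 library of each type, 10 in all, so the libraries are paired by animal. Both types carried the transgene and the tracer, GFP reports the activity of the *Fezf2* transgene and not the protein, and the mean sorted yield in the sample records was 11280 cells for *Fezf2+ve* and 2688 for *Fezf2−ve* IT-PNs. The text of the paper gives another yield for the latter.

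S100 proteins are small EF-hand proteins that mostly work as dimers. Calcium binding exposes a surface through which they bind target proteins such as annexins, cytoskeletal proteins and kinases, so they act as calcium sensors more than as buffers. In the brain *S100b* is best known as a marker of astrocytes and also occurs in cells of the oligodendrocyte lineage. *S100a10*, also called p11, is known from a class of layer 5 projection neurons and binds annexin A2, and *S100a1* is best known from heart muscle, where it acts on calcium release channels. Most genes of the family lie side by side in one cluster.

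Gene reads per library numbered 107643 to 203379 for *Fezf2+ve* IT-PNs and 89138 to 217738 for *Fezf2−ve* IT-PNs. At this depth 3 reads, the number taken as the floor for a count of 0, correspond to 13.8 to 33.7 CPM (reads per 1000000 gene reads) in a single library, and to 1.93 CPM over the 1553687 reads of all 10. Floors and counting intervals cover counting error only, since reads amplified by PCR are not independent molecules. In sorted pools, fewer cells of a type and less RNA per cell cannot be told apart.

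*S100a16* held most of the S100 reads and was the member with the widest difference between the types. Of 400 reads on the 8 genes, 317 (79.2%) were on *S100a16*, a member that binds calcium weakly and is widely expressed, astrocytes included. The 8 genes together had 314 reads in *Fezf2+ve* and 86 in *Fezf2−ve* libraries. Without *S100a16* they had 40 and 43 reads, but these near-equal sums rested on 1 library. *Fezf2−ve* library 1 held 25 of the 43 reads, against 7 in *Fezf2+ve* library 1. In animals 2 to 5 the *Fezf2+ve* libraries had 9, 13, 1 and 10 such reads. Their *Fezf2−ve* libraries had 1, 9, 7 and 1. Scaled by gene span, *S100a16* had a mean level of 43.0 CPM per kb over the 10 libraries, followed by *S100a1* with 5.41, *S100a6* with 4.18 and *S100b* with 3.61 CPM per kb. Those 3 rested on 28, 9 and 37 reads, and their order was not resolved at this depth. Without division by span *S100a16* stood at 253 CPM. Those 3 stood at 17.8, 6.36 and 27.0 CPM, so that *S100b* came first among them, and their order depended on this scaling. The paper describes its libraries as biased to the 3′ end, so that gene length need not enter normalization. *S100a13* was at 0.403 and *S100a4* at 0.260 CPM per kb, or 4.17 and 0.593 CPM without that division, from 8 reads and 1 read.

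*S100a16* (ENSMUSG00000074457, on the plus strand of chromosome 3 from 90537254 to 90543151 in GRCm38) had 58, 26, 163, 2 and 25 reads in *Fezf2+ve* IT-PNs of animals 1 to 5, which were 491, 242, 1381, 13.2 and 123 CPM. The *Fezf2−ve* libraries of the same animals had 27, 6, 8, 1 and 1 reads, which were 161, 67.3, 47.4, 4.73 and 4.59 CPM. *Fezf2+ve* library 3 was the highest and alone held 51.4% of all *S100a16* reads, and *Fezf2−ve* library 1, the highest of its type, held 62.8% of the *Fezf2−ve* reads. The groups overlapped, because *Fezf2+ve* library 4 with 2 reads lay below 3 of the *Fezf2−ve* libraries. Within animals the *Fezf2+ve* library was the higher one in 5 of 5. On the level scale, which is log2(CPM + 1) with library sizes adjusted by TMM, the mean was 7.67 ± 2.07 in *Fezf2+ve* libraries against 4.80 ± 1.84 in *Fezf2−ve* libraries (SD, n = 5 each).

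**Figure D1:**
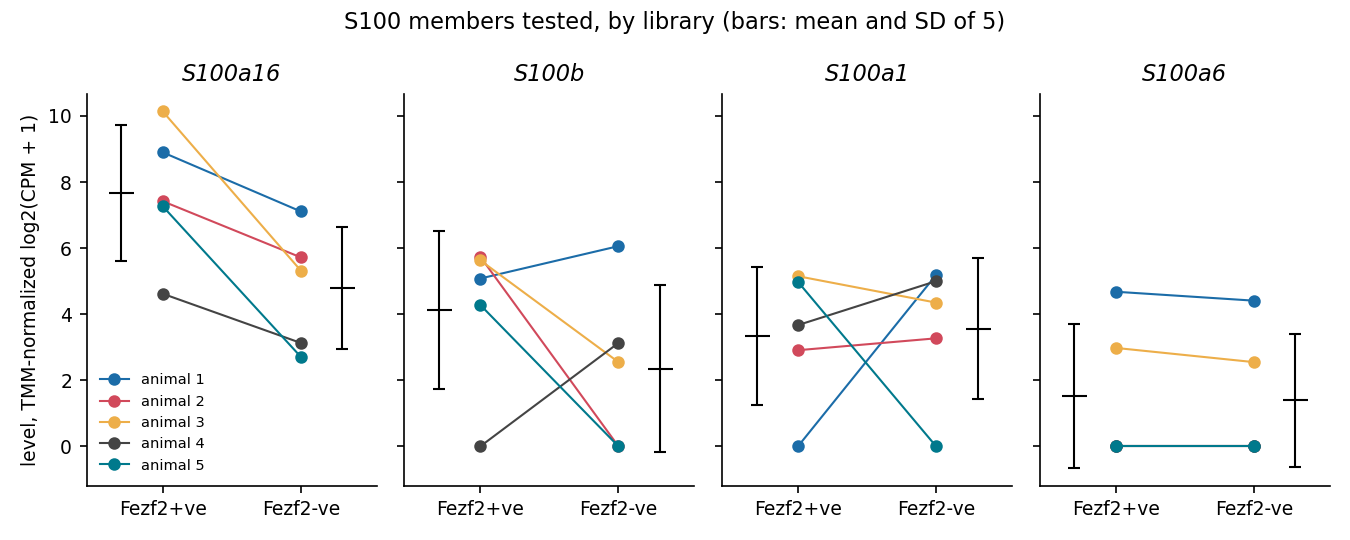
Levels of the 4 members that passed the filter, as TMM-normalized log2(CPM + 1), in each library, with a line joining the libraries of 1 animal and bars for the mean and SD of 5 libraries of a type. Every line of *S100a16* falls from *Fezf2+ve* to *Fezf2−ve*, whereas those of *S100b* and *S100a1* cross, and *S100a6* was at 0 reads in 6 of 10 libraries.

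The size of the *S100a16* difference varied between animals. The ratio of CPM, *Fezf2+ve* over *Fezf2−ve*, was 3.05 in animal 1 (95% counting interval 1.90 to 5.02, exact binomial) and 3.59 in animal 2 (1.44 to 10.7). In animal 3 it was 29.1 (14.4 to 68.6). Animal 5 had a ratio of 26.8 (4.38 to 1099), which rests on a single *Fezf2−ve* read. Animal 4, with 2 reads against 1, had a ratio of 2.79 and an interval from 0.145 to 164.5, so no difference was detectable there at this depth. Reads could also be scaled to the ERCC spike-in, synthetic RNA added to each RNA sample, whose reads ranged from 6251 to 103498 per library. The ratios were then 1.15, 13.4, 29.5, 2.10 and 8.26 in animals 1 to 5, above 1 in each animal but close to 1 in animal 1, whose *Fezf2+ve* library had the most ERCC reads. ERCC was added per RNA sample and not per cell, so these ratios also carry the amount of RNA put in.

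**Figure D2:**
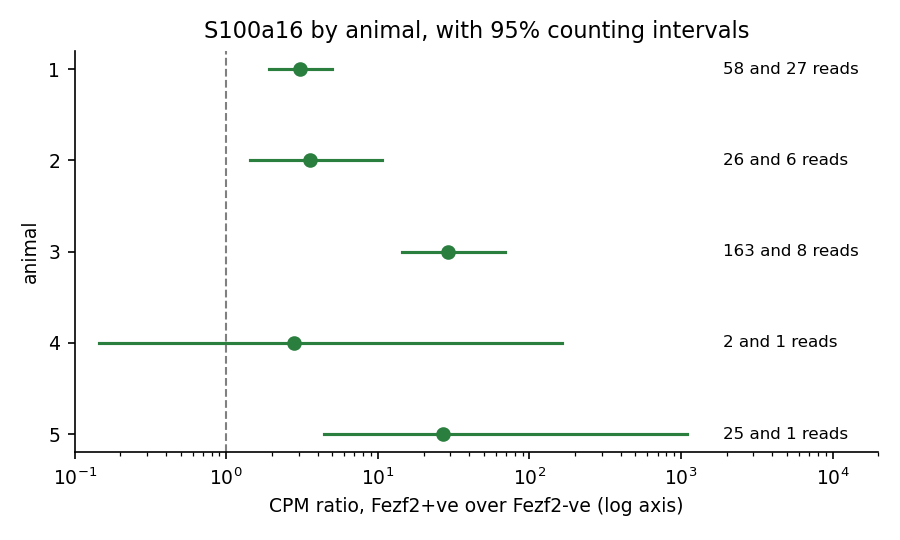
Ratio of *S100a16* CPM between the *Fezf2+ve* and *Fezf2−ve* library of each animal on a log axis, with exact 95% counting intervals as lines and the reads of both libraries at the right. The intervals of 4 animals lie above 1, and that of animal 4, from 0.145 to 164.5, spans it.

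All 7409 genes that passed the filter were tested with edgeR (quasi-likelihood, blocked by animal, p adjusted after Benjamini and Hochberg). In that fit *S100a16* had a log2 fold change of 2.87 (SE 1.17) and an adjusted p of 0.998. None of the 4 tested members was called at an adjusted p of 0.1 or below, as for the tested genes as a whole, of which 0 (0%) were called. edgeR without the block called 279 genes (3.77%) and DESeq2 with the block called 98 (1.32%), with 0 S100 members in either. DESeq2 gave an adjusted p to 1664 genes only, of which the 98 are 5.89%, and among the members to *S100a16* alone (0.126). The paper, which used DESeq2 1.10.1, lists *S100a16* among the genes increased in *Fezf2+ve* IT-PNs. At an unadjusted p under 0.05, 1 of the 4 members was higher in *Fezf2+ve* libraries, beside 120 of the 7409 genes (1.62%). That member was *S100a16*, and its place under 0.05 depended on an option of the test. Its unadjusted p was 0.0230 with the newer quasi-likelihood method of edgeR and 0.0741 with the legacy method, which is the default of the version used. The newer method was settled on after the p under each option had been seen, so no weight is put on that p. The other edgeR settings were run with the newer method only. With it the p was 0.0256 without the block, 0.0238 with RLE size factors and 0.0266 with library size only. It was 0.0455 without the filter and 0.0863 with ERCC reads as library sizes. Without animal 3 the unadjusted p was 0.0744 and the log2 fold change 2.26, and without animal 5 they were 0.0635 and 2.35. DESeq2 gave an unadjusted p of 0.00882. The fold change of *S100a16* was positive under each setting for which it was written out, and 4.10% of the tested genes had a higher one.

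In every one of the 5 animals the *Fezf2+ve* level exceeded the *Fezf2−ve* level for 1 of the 4 tested members, *S100a16*, and for 125 of the 7409 genes (1.69%). None of the 4 was lower in 5 of 5 animals, as 179 genes (2.42%) were. No member had levels that did not overlap between the types, which 108 genes (1.46%) had. Since *S100a16* was listed with its difference known, nothing is read from these shares.

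Reads of *S100b*, the astrocyte-associated member on chromosome 10 (ENSMUSG00000033208, 76253836 to 76261319, plus strand), numbered 4, 8, 7, 0 and 3 in *Fezf2+ve* IT-PNs of animals 1 to 5. The *Fezf2−ve* libraries had 13, 0, 1, 1 and 0 reads. The highest library was thus *Fezf2−ve* library 1, with 86.7% of the reads of its type, and the groups overlapped. The mean levels were 4.14 ± 2.39 and 2.35 ± 2.52 (SD, n = 5 each), and the level was higher in *Fezf2+ve* in 3 of 5 animals. Its log2 fold change was 1.74 (SE 1.63, adjusted p 0.998 by edgeR), which did not exceed the spread between animals. It was 0.90 without the block, 2.76 without animal 1 and 0.98 without animal 2. *Fezf2+ve* library 4 had 0 reads, which allows up to 19.8 CPM, and is thus not set apart from *Fezf2+ve* library 5 with 14.8 CPM.

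*S100a1* (ENSMUSG00000044080, chromosome 3, 90511034 to 90514330, minus strand) had 0, 1, 5, 1 and 5 reads in *Fezf2+ve* and 7, 1, 4, 4 and 0 reads in *Fezf2−ve* libraries of animals 1 to 5. These ranges were almost the same, with levels of 3.34 ± 2.09 and 3.56 ± 2.13 (SD, n = 5 each). The log2 fold change was -0.12 (SE 1.57, adjusted p 0.998 by edgeR), and it changed sign without animal 1 (0.64) and without animal 4 (0.24), so no direction is given. *S100a6*, a gene expressed in many dividing and glial cells (ENSMUSG00000001025, chromosome 3, 90612894 to 90614414, plus strand), had 3, 0, 1, 0 and 0 reads in *Fezf2+ve* and 4, 0, 1, 0 and 0 reads in *Fezf2−ve* libraries. All its reads came from the libraries of animals 1 and 3, in near-equal numbers in both types. Its log2 fold change was 0.27 (SE 1.81, adjusted p 0.998 by edgeR) and became -0.48 with ERCC reads as library sizes. Relative to the median of all genes these were 0.43 and -0.03.

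The other 4 members did not pass the filter. *S100a13* (ENSMUSG00000042312), a member linked to the release of growth factors from cells, had 2 reads in *Fezf2+ve* library 5, and 1, 0, 2, 2 and 1 reads in the *Fezf2−ve* libraries. *S100a4* (ENSMUSG00000001020), a partner of non-muscle myosin, had 1 read, in *Fezf2−ve* library 3. No read was counted on *S100a10* (ENSMUSG00000041959) or *S100a14* (ENSMUSG00000042306), which over all libraries allows up to 1.93 CPM. *S100a10*, the family's best-known gene in layer 5, was thus not detectable at this depth. The table has 10 more rows whose names begin with S100. Of these *S100pbp*, which encodes a binding partner and not an S100 protein, had 5 reads and *S100a5* had 1 read, and the other 8 rows (*S100a2*, *S100a3*, *S100a7a*, *S100a8*, *S100a9*, *S100a11*, *S100g* and *S100z*) had 0 reads.

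Of the 8 members, 7 lie on chromosome 3, so neighbours could share reads, because the counting program adds a read to each gene it overlaps and whether strand was used is not given in the sources used here. *S100a1* and *S100a13* lie head to head and overlap by 98 bases in RefSeq but are 42 bases apart in GENCODE. Both had reads in 4 libraries, and in none of these were the counts equal. Reads in the 98 bases cannot be assigned to either. *S100a16* overlapped no other gene of the table in either annotation, and its nearest neighbour, *S100a14*, is 8416 bases away and had 0 reads. The span of *S100a6* was 6848 bases from that of *S100a4* and 1109 from that of *S100a5*, and its count equalled that of *S100a4* in the 1 library where both had reads. *Chtop*, 1506 bases from *S100a1* and on the same strand, had 39 reads, with equal nonzero counts in 1 library. *S100a5*, with 1 read, is 434 bases from *S100a4*, and *S100a3*, with no reads, is 1063 bases from it. *Dip2a*, antisense to *S100b*, overlaps it by 1731 bases in GENCODE and lies 1714 bases away in RefSeq, and had 1 read, equal to the *S100b* count of the same library. Reads in that overlap cannot be assigned to either gene.

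**Figure D3:**
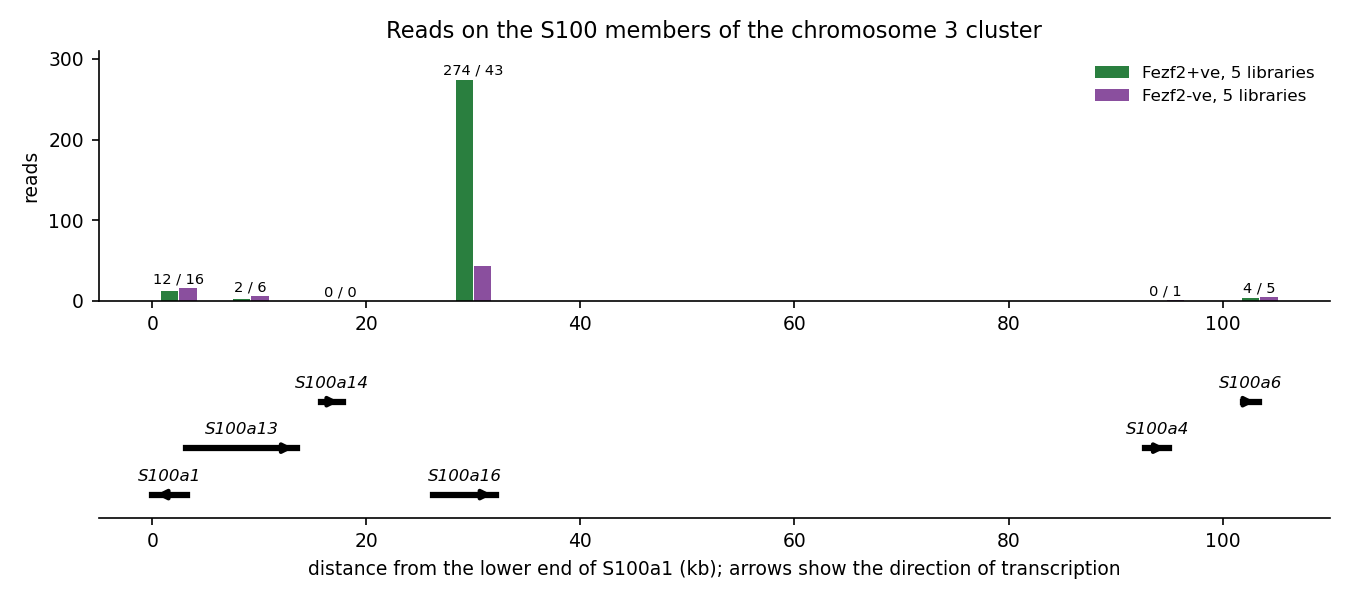
The 6 members of the main chromosome 3 cluster drawn to scale by distance in kb, with arrows for the direction of transcription, below the reads summed over the 5 libraries of each type. *S100a16*, with 274 reads in *Fezf2+ve* and 43 in *Fezf2−ve* libraries, stands between *S100a14* at 0 reads and *S100a4* at 1 read.

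The sequences before the start sites of *S100a16* and *S100b*, the 2 members with the most reads, are shown because neighbours of *S100a16* in the cluster had few or no reads. RefSeq windows of GRCm38.p6 were found for 6 of the 8 members, not for *S100a10* and *S100a14*. Each run below is the 250 bases before a start site on the plus strand, 5′ to 3′, and capitals mark a match to the motifs searched on both strands. The first window of *S100a16* is chr3:90537004-90537253, the second, chr3:90540896-90541145, lies inside the annotated gene span before a later start, and that of *S100b* is chr10:76253586-76253835.
S100a16 first start: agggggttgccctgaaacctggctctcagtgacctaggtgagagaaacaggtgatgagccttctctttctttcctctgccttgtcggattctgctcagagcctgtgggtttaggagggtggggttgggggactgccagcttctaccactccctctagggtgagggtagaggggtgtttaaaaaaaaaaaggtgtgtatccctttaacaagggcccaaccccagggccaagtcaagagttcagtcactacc
S100a16 second start: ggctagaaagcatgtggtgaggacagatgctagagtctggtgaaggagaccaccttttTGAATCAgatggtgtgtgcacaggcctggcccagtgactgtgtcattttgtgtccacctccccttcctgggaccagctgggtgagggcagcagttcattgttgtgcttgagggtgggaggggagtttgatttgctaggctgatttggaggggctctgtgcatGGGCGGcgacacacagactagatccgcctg
S100b start: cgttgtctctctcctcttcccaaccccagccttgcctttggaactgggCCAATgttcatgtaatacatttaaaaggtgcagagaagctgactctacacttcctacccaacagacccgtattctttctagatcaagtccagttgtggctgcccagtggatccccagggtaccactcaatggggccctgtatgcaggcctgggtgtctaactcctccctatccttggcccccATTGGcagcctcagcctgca
The first *S100a16* window held none of the 4 motifs searched. In the second, 1 GC box (searched as GGGCGG) begins 30 bases before the start, and of 32851 windows of the same length 32.7% held this motif. The second window also held 1 AP-1 motif (searched as TGANTCA), 192 bases before the start, which 6.75% of the windows held. No TATA box (searched as TATAAA, held by 12.4% of the windows) was in any of the 3. The *S100b* window held 2 CCAAT boxes, searched by those 5 letters, 202 and 20 bases before the start, and 33.8% of the windows held at least 1. No searched motif overlapped another in these windows. G and C made up 53.2%, 55.6% and 53.6% of the 3 windows, beside a median of 52.4% over all windows. These matches describe the letters only.

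Genes with a pattern like that of *S100a16* over the 10 libraries were *Ndrg2* (Pearson r = 0.924), *Gpm6a* (r = 0.917) and *Map1a* (r = 0.896). *Ndrg2* is best known from astrocytes, *Gpm6a* encodes a neuronal membrane glycoprotein and *Map1a* a microtubule-associated protein. *Ndrg2* had 45, 16, 54, 5 and 12 reads in *Fezf2+ve* and 34, 12, 8, 3 and 1 reads in *Fezf2−ve* libraries, and its log2 fold change was 1.77 (SE 1.08, adjusted p 0.998 by edgeR, higher in 5 of 5 animals). These 3 genes were picked as the highest of all tested, and libraries share their depth, so the values are a description without a test. For *S100b* the most similar genes were *Prmt2* (r = 0.919), *Sez6* (r = 0.913) and *Nudcd1* (r = 0.912), with 13, 11 and 11 reads. *Prmt2* lies 15970 bases from *S100b* on chromosome 10, beyond the distance within which neighbours were listed. *S100a1* was closest to *Wwp2* (r = 0.961), *Spag6* (r = 0.952) and *Gm6654* (r = 0.940). *S100a6*, from 9 reads, was closest to *Arl6ip4* (r = 0.993), *Ddb1* (r = 0.988) and *Mrpl10* (r = 0.986).

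Known partners and targets of S100 proteins showed no common direction. Of 45 listed genes, 37 had reads and 25 were tested, of which 10 had a positive and 15 a negative fold change, with a median log2 fold change of -0.32 beside -0.16 over all tested genes. None was called, and 1 had an unadjusted p under 0.05, beside 288 of the 7409 genes (3.89%) in either direction. This was *Ryr2*, which encodes a calcium release channel, with a log2 fold change of 2.68 (SE 1.25, adjusted p 0.998 by edgeR), higher in *Fezf2+ve* in 5 of 5 animals. Its unadjusted p was 0.0453 and, with the legacy method, 0.122. Among the annexins, *Anxa2*, the partner of *S100a10*, had 3 reads, and *Anxa1*, a partner of other members, had 4. *Smarca4*, a chromatin remodeller, had 6 reads in *Fezf2+ve* and 28 in *Fezf2−ve* libraries, 16 of them in *Fezf2−ve* library 3, and its log2 fold change was -1.78 (SE 1.47, adjusted p 0.998 by edgeR). *Myh9*, the myosin bound by the *S100a4* product, had 2 and 29 reads, 23 of them in *Fezf2−ve* library 3. *Stip1* and *Syt1* went the other way. *Stip1* had 846 and 69 reads, 680 of them in *Fezf2+ve* library 3 (log2 fold change 2.94, SE 2.91, adjusted p 0.998 by edgeR). *Syt1* had 54 and 18 reads (log2 fold change 1.62, SE 1.22, adjusted p 0.998 by edgeR). *Trpv5*, an epithelial calcium channel, had the most reads of the list, 12361, of which 12214 were in *Fezf2+ve* library 5.

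Among other small EF-hand sensors and buffers, 42 of 49 listed genes had reads and 30 were tested, 19 with a positive and 11 with a negative fold change. Their median log2 fold change was 0.73 with TMM, 0.67 with library size only, 0.68 with RLE size factors and 0.52 with ERCC reads as library sizes, beside -0.16, -0.19, -0.21 and -0.44 over all genes. None was called by edgeR with the block, and 3 had an unadjusted p under 0.05, all higher in *Fezf2+ve* libraries, beside the 1.62% of all genes given above. With the legacy method the same count was 3, beside 115 of the 7409 genes. *Hpcal4*, 1 of these 3, passed the filter through *Fezf2+ve* libraries only, so nothing is read from these counts. DESeq2 with the block called 2 of the 6 genes of the list to which it gave an adjusted p, beside 5.89% of all such genes, and edgeR without the block called 1 of 30, beside 3.77% of all genes. *Ppp3r1*, the regulatory subunit of calcineurin, had a log2 fold change of 3.21 (SE 1.19, adjusted p 0.998 by edgeR, 0.0931 without the block and 0.0876 by DESeq2) and was higher in 5 of 5 animals. *Kcnip3*, a calcium-dependent regulator of potassium channels and transcription, had a log2 fold change of 4.65 (SE 1.77, adjusted p 0.998 by edgeR, 0.171 without the block and 0.0553 by DESeq2), and 256 of its 315 reads lay in *Fezf2+ve* library 1. *Hpcal4*, a neuronal calcium sensor, had 26 reads in *Fezf2+ve* and 0 in *Fezf2−ve* libraries, at least 10.6-fold higher in pooled CPM against the floor of 3 reads. Of these reads 17 (65.4%) lay in *Fezf2+ve* library 2, and without that library the bound was 4.34-fold. *Hpcal4* was higher in *Fezf2+ve* in 3 of 5 animals (adjusted p 0.998 by edgeR, 0.103 without the block). The gene with the most reads was *Efhd2*, with 380, of which 352 lay in *Fezf2−ve* library 3. The lists were compiled with earlier results of these data known. *Ryr2*, *Ppp3r1* and *Kcnip3* are, like *S100a16*, genes the study had picked from these libraries, so their direction in these counts is no independent evidence. The paper also reports less RYR2 protein in *Fezf2−ve* cell bodies by immunostaining, and qPCR of *Kcnip3* on amplified cDNA of its samples.

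**Figure D4:**
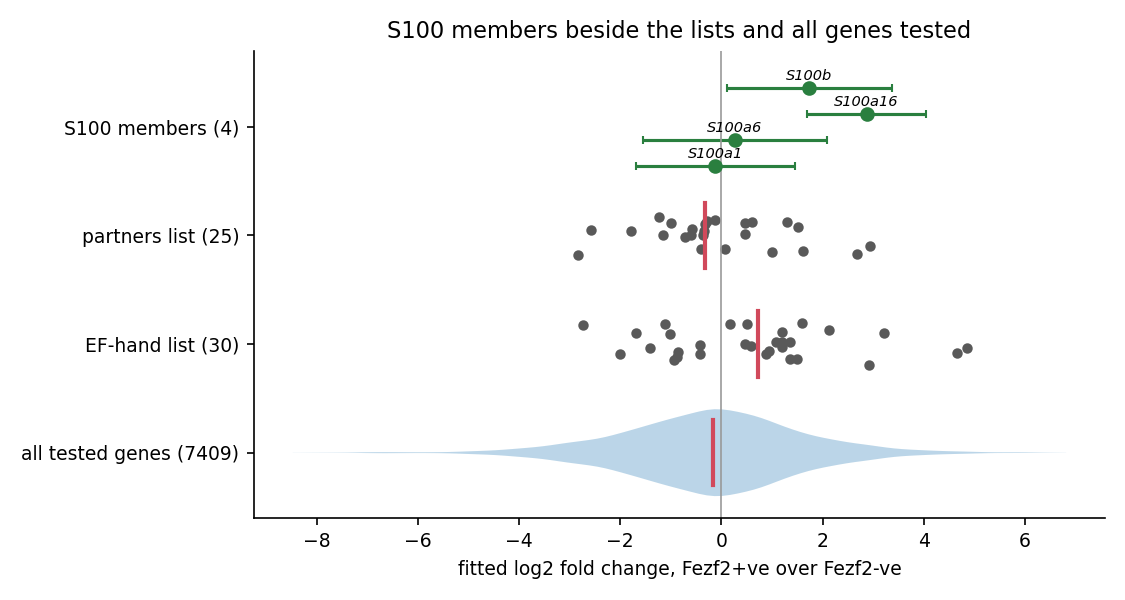
Fitted log2 fold change, *Fezf2+ve* over *Fezf2−ve*, of the 4 tested members with their standard errors, of each tested gene in both lists, and of all 7409 tested genes as a density, with red lines at the medians. The point of *S100a16* at 2.87 lies to the right of the medians of -0.32, 0.73 and -0.16.

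Markers of other cell types differed between these libraries and are given beside the S100 values. Of 11 astrocyte markers 10 had reads, and their summed CPM in animals 1 to 5 was 762, 7674, 652, 1761 and 477 in *Fezf2+ve* and 977, 258, 172, 3804 and 179 in *Fezf2−ve* libraries. *Slc1a2*, a glutamate transporter, was the most abundant of them with 1817 reads, and *Gfap* was at 0 reads. The sum was higher in *Fezf2+ve* in 3 of 5 animals, but single genes made its peaks. *Slc1a2* held 778 of 826 reads in *Fezf2+ve* library 2 and 791 of 804 in *Fezf2−ve* library 4, and *Slc1a3*, another transporter, held 238 of 267 in *Fezf2+ve* library 4. *Aldoc*, a glycolytic enzyme gene, was spread more evenly, with 24, 31, 28, 1 and 25 reads in *Fezf2+ve* and 40, 3, 4, 3 and 4 reads in *Fezf2−ve* libraries. The fitted difference of *Aldoc* was 1.73 on the log2 scale (SE 1.19, adjusted p 0.998 by edgeR, higher in 3 of 5 animals). Of the 8 astrocyte markers tested, 4 had a positive and 4 a negative fold change, with a median of 0.20. The positive ones were *Slc1a2* (2.46, higher in 4 of 5 animals), *Aldoc*, *Slc1a3* (1.7) and *Aqp4* (1.23). *Gja1* (-0.82), *Gjb6* (-2.65), *Slc4a4* (-1.16) and *Fgfr3* (-1.25) were the negative ones. The fitted value of *Gjb6* rests on 0 against 5 reads, at least 1.36-fold in pooled CPM against the floor of 3 reads. *Gjb6* passed the filter through *Fezf2−ve* libraries only, so nothing is read from its sign. With this bound in place of its fitted value the median of the astrocyte markers was 0.39. All 7 markers of oligodendrocyte precursors had reads, led by *Vcan* with 1008, and summed to 2040, 3242, 932, 85.8 and 4735 CPM in *Fezf2+ve* and 1691, 830, 1014, 142 and 1121 CPM in *Fezf2−ve* libraries. *Vcan* held 819 of the 963 reads in *Fezf2+ve* library 5, and *Pdgfra*, a growth factor receptor, 243 of 244 in *Fezf2−ve* library 5. The precursor sum was higher in *Fezf2+ve* in 3 of 5 animals. The 5 positive and 2 negative fold changes of the precursor markers had a median of 1.12, beside -0.16 over all genes. None was called. This median has the sign of the fold changes of *S100a16* and *S100b*. It is, however, the value of *Vcan*, which was lower in *Fezf2+ve* in 3 of 5 animals. Markers of mature oligodendrocytes are left out for a reason unrelated to their values, so nothing is said here on those cells. The part of all these cell types in the reads of *S100a16* and *S100b* was not tested.

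Microglial markers went the opposite way to *S100a16*. All 12 had reads, and their sums were 262, 176, 102, 72.6 and 128 CPM in *Fezf2+ve* and 6872, 5452, 7225, 1845 and 4028 CPM in *Fezf2−ve* libraries, so the types did not overlap. *Ctss*, a lysosomal protease gene, was the most abundant with 817 reads, and the list's median log2 fold change was -5.03 beside -0.16 over all genes. All 12 were lower in *Fezf2+ve* in 5 of 5 animals, beside 2.42% of all genes, yet edgeR with the block called none of them. Without the block it called 11, beside 3.77% of all genes. DESeq2 called 10 of the 11 to which it gave an adjusted p, beside 5.89% of all such genes. Among them *C1qa*, *C1qb*, *Tyrobp*, *Siglech* and *Tmem119* passed the filter through *Fezf2−ve* libraries only. Several of the 12, such as *Csf1r*, are also genes the study had picked from these libraries, so nothing is read from these counts. A lack of a call in the fit with the block, for *S100a16* as for these genes, does not show the lack of a difference. The part of this difference in the share of reads left to *S100a16* was not tested. Of 6 neutrophil and monocyte markers, *S100a8* and *S100a9* among them, none had a read. Of 10 endothelial and mural markers 8 had reads, led by *Flt1* with 26, with *Kcnj8* and *Acta2* at 0. Fibroblast and meningeal markers had reads for 2 of 6, 4 each for *Col3a1* and *Dcn*, and *Col1a1*, *Col1a2*, *Lum* and *Slc6a13* were at 0.

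Markers of the labelled cells were sparse. Of 8 excitatory neuron markers 7 had reads, with *Tbr1* at 0, and summed to 584, 158, 161, 6.60 and 44.3 CPM in *Fezf2+ve* and 71.5, 44.9, 3296, 42.6 and 41.3 CPM in *Fezf2−ve* libraries. *Camk2a*, a kinase of excitatory neurons, held 588 of their 705 reads, of which 529 lay in *Fezf2−ve* library 3, whereas *Slc17a7*, the transporter that defines these neurons, had 11 reads in all. Of 6 inhibitory neuron markers 3 had reads, led by *Gad2* with 6, and *Slc32a1*, *Vip* and *Pvalb* were at 0.

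**Figure D5:**
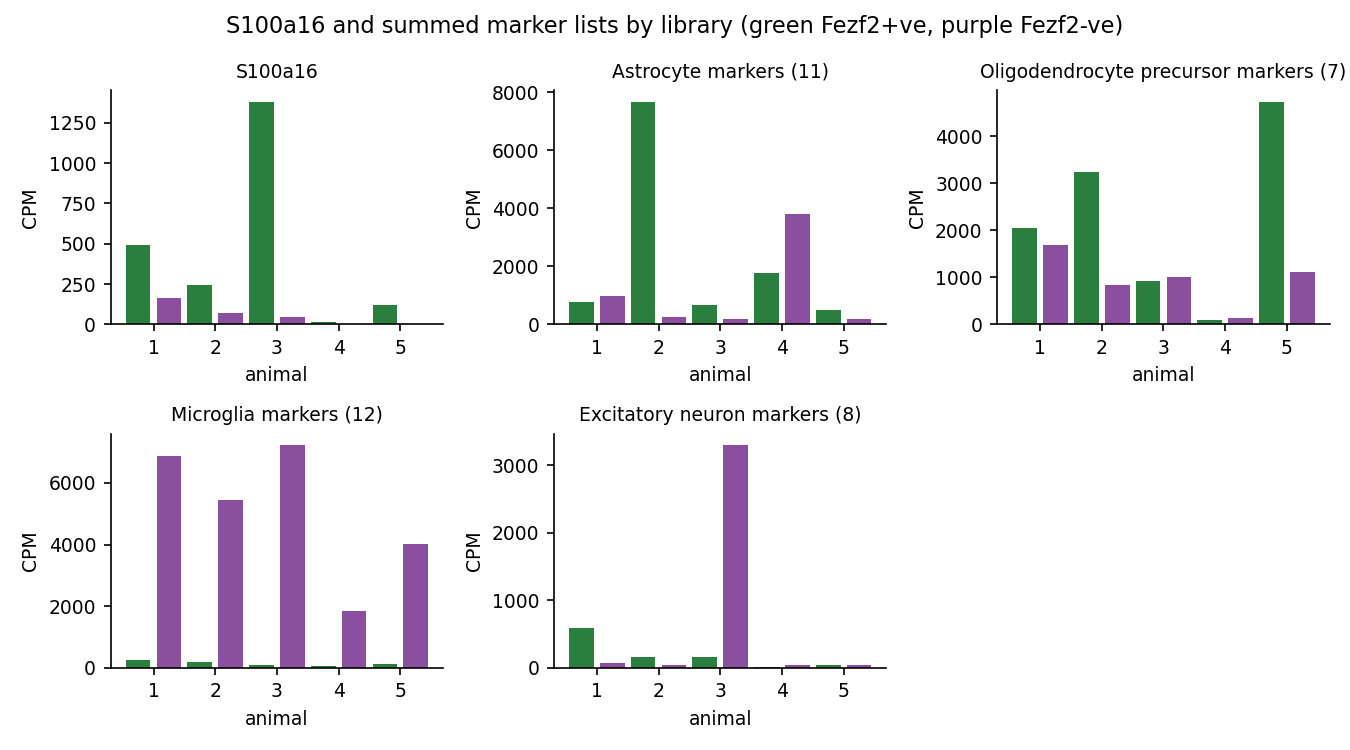
CPM of *S100a16* and summed CPM of 4 marker lists in each library, by animal, on linear axes from 0, green for *Fezf2+ve* and purple for *Fezf2−ve*. *S100a16* is highest in *Fezf2+ve* library 3 (1381 CPM), the astrocyte sum in *Fezf2+ve* library 2 (7674 CPM, where *Slc1a2* held 778 of 826 reads), and microglial sums in each *Fezf2−ve* library exceed those of every *Fezf2+ve* library.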

How the data were processed

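Reads of 10 libraries were demultiplexed with bcl2fastq 1.8.4, mapped to mm10 with TopHat2 2.1.1 and counted on RefFlat genes and on ERCC transcripts with bedtools 2.26.0 (versions from the submitters' processing notes). The authors deposited these read counts without normalization. They also deposited a table of their own DESeq2 comparison (means, fold changes and p-values), which was not used. Libraries were grouped by type and paired by the animal number of their titles, and the records state that cells of each animal were separated into both types. Deviations from the type means correlated by 0.029 on average within animals (range -0.027 to 0.097 over 5 pairs) and by -0.007 between animals.

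The filter required 10 CPM or more in 2 or more libraries and left 7409 of 24453 genes. These were tested with edgeR 4.0.16 in R 4.3.3 (TMM, quasi-likelihood, animal as a block, Benjamini-Hochberg adjustment, threshold 0.1), and levels are log2(CPM + 1). Standard errors were calculated back from the F statistic. The test design did not fix the options of the quasi-likelihood fit. A first run used the default legacy method, under which *S100a16* had an unadjusted p of 0.0741. All 20 combinations of method, robust fitting, library sizes and dispersion estimate that edgeR could run were then compared with an earlier analysis of these counts, and the newer method without robust fitting was taken because it matched that analysis. The p of *S100a16* was in view when this was done, and the choice gives it the smallest p of the 20, shared with 2 other combinations. Alternatives were no block, DESeq2 1.42.0, other size factors, other filters and leaving out each animal, and, added after the data had been seen, the legacy and robust methods, library sizes before the filter and ERCC reads as library sizes. Apart from the legacy one, these edgeR alternatives used the newer method.

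Members and gene lists were chosen with earlier results of these data known. Named are the 8 members, other rows beginning with S100, genes within 10 kb of a member, the 3 tested genes most correlated with each tested member, and, from 2 lists, genes with an unadjusted p under 0.05 and the gene with the most reads. From the marker lists, genes with the most reads in a list or library, some genes without reads and *Slc17a7* are also named. *Anxa1*, *Anxa2*, *Smarca4*, *Myh9*, *Stip1*, *Syt1*, *Slc1a3*, *Aldoc*, *Aqp4* and *Pdgfra* were named after their values had been seen. So were the 4 astrocyte markers with a negative fold change. The oligodendrocyte marker list was fixed with the others, and its results are left out for a reason unrelated to their values. The *Hpcal4* bound without 1 library and the legacy p of list genes were added after the data had been seen. Positions and spans are from RefSeq (GRCm38.p6), with strand and identifiers from GENCODE M21, both on mm10 coordinates counted from 1. GENCODE matched 23507 gene names. Promoter sequences are from RefSeq, cut to the 250 bases before the start. Python 3.11.15, numpy 2.4.6, pandas 2.3.3 and scipy 1.17.1 were used.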

Additional observations from a re-analysis of the deposited data

Results flagged for a closer look

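The level of *S100b* in *Fezf2+ve* library 4 was 0 (0 reads), below the other 4 *Fezf2+ve* libraries, which lay between 4.28 and 5.74 on the log2(CPM + 1) scale. The gap to the nearest was 0.745 of the whole range. Of 10 groups of 5 libraries examined in this way it was the only one to stand out, and chance marks about 1 in 20 such groups. A count of 0 in that library allows up to 19.8 CPM, and the other 4 libraries had between 14.8 and 74.3 CPM, so the gap depends on placing a count of 0 at level 0 and does not set the library apart from the lowest of the others. The same library also had the fewest genes with a read, 3990, and 2 reads of *S100a16*. The cause was not tested.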

How the results depend on the processing

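The number of genes called was 0 by edgeR with the block, 279 without the replicate block and 98 with DESeq2, where 5745 adjusted p-values were not given. The cause was not tested. No S100 member was called under any setting run, whereas the paper lists *S100a16* as increased in *Fezf2+ve* IT-PNs. DESeq2 gave no adjusted p for *S100a1*, *S100a6* and *S100b*. The number of members with an unadjusted p under 0.05, 1 with the settings used, was 0 with the legacy quasi-likelihood method and 0 with ERCC reads as library sizes, and between 0 and 1 on leaving out each animal. Over 20 combinations of the fit's options, the p of *S100a16* was 0.0230 to 0.0252 in the 12 with the newer method and 0.0741 to 0.0809 in the 8 with the legacy one, and no gene was called in any. The option used was chosen after these values had been seen. The fold change of *S100a16* stayed positive where it was written out, and those on leaving out each animal were 2.26 to 3.20. That of *S100a1* was -1.12 to 0.64 on leaving out each animal, turning positive without animal 1 (0.64) and animal 4 (0.24), and that of *S100a6* turned to -0.48 with ERCC sizes, under which the median of all genes moved from -0.16 to -0.44. Relative to those medians, *S100a16* stood at 3.03 and 3.13 and *S100a6* at 0.43 and -0.03. *S100a6* could not be tested without animal 1, where it failed the filter. The counts of members higher (1) and lower (0) in all animals were the same with RLE, library size only and ERCC sizes. The block changed no call on the members. With 1 to 37 reads, *S100a1*, *S100a4*, *S100a6*, *S100a13* and *S100b* allow no statement on differences of a few fold.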
